A study of Mus musculus with 14 samples.

Results

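The albumin gene cluster is a row of related genes on mouse chromosome 5: Gc, Alb, Afp and Afm. Acetylation of histone H3 at lysine 9 (H3K9ac), a mark found at active promoters and enhancers, was measured there in mouse liver by sequencing of immunoprecipitated chromatin (ChIP-seq). Peaks were taken where they overlapped the RefSeq span of any of the 4 genes or the 20 kb on either side of it. After overlapping peaks of all libraries were merged, the cluster held 27 regions of 57979 in the series, built from 243 of 357969 peaks. Of these 27, 7 had a peak in all 12 libraries, as did 12375 regions of the series. All libraries came from regenerating liver of male C57BL6/J mice aged 2 to 3 months, taken 12 h after partial hepatectomy, and no sham-operated or resting liver was analysed here. The study examined how delaying the hypoglycemia that follows the operation affects H3K9ac. By title, 6 libraries were d22 and 6 were pbs, but each title goes against the treatment label of its library. The d22 titles carry the label of the vehicle, PBS at 1/2 strength, and the pbs titles carry that of dextrose at 22.5% in vehicle. Libraries are therefore named by title only, differences are given as d22 minus pbs, and which mice received dextrose is left unstated. The labels do not say that libraries are from separate animals, so the tests measure the spread between these libraries, part of which may be technical.

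The genes of this family encode plasma carrier proteins that descend from one ancestral gene and are made mainly by hepatocytes. Alb encodes serum albumin, the main protein of adult plasma, which holds fluid in the vessels and carries fatty acids, bilirubin and drugs. Afp encodes alpha-fetoprotein, its counterpart in fetal plasma, which is made by fetal liver and yolk sac, is silenced after birth and can return in regenerating or cancerous liver. Afm encodes afamin, a carrier of vitamin E and of Wnt proteins. Gc encodes the vitamin D binding protein, which also binds actin. Liver factors such as HNF1, C/EBP, FOXA and HNF4 are known to act on promoters and distal enhancers of the family, and the best known liver enhancer of Alb lies well upstream of the gene.

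In the RefSeq annotation of GRCm38.p6, the same coordinates as mm10, Gc (gene ID 14473) lies on the minus strand at chr5:89417511-89457898. The other 3 lie on the plus strand, 1003 kb further along: Alb (11657) at chr5:90460870-90476602, Afp (11576) at chr5:90490714-90508907 and Afm (280662) at chr5:90518949-90553544. Alb ends 14.1 kb before Afp begins, and Afp ends 10.0 kb before Afm begins. Another gene named for the family, Albfm1 (622307, chr5:90560626-90598127), begins within the 20 kb after Afm, and peaks at its start therefore fall in the window of Afm. Its start here is the one of the RefSeq promoter table, base 90561209, inside that span.

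The 250 bases before each start are shown because the peaks described below leave most of this sequence uncalled at Alb. At Gc, Afm and Albfm1, peaks also lay or reached before the start. They are RefSeq reference sequence of GRCm38.p6, 5′ to 3′ along each gene. Capitals mark the 6 motifs searched on both strands: GTTAAT (a half-site of HNF1), TATAAA (the TATA box), CCAAT (the CCAAT box), TTNNGNAAT (a C/EBP core), TGTTTNC (a FOXA core) and CAAAGNNCA (an HNF4 core).
Gc, chr5:89457899-89458148, minus strand: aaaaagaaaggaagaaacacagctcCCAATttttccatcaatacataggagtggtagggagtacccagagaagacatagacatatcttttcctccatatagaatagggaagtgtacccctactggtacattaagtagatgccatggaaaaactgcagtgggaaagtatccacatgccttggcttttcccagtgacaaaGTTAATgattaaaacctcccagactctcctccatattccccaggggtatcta
Alb, chr5:90460620-90460869, plus strand: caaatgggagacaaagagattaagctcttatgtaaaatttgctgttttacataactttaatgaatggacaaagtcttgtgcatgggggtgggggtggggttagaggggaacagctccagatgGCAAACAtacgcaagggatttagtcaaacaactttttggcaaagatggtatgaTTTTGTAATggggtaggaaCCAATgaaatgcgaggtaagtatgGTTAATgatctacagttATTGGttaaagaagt
Afp, chr5:90490464-90490713, plus strand: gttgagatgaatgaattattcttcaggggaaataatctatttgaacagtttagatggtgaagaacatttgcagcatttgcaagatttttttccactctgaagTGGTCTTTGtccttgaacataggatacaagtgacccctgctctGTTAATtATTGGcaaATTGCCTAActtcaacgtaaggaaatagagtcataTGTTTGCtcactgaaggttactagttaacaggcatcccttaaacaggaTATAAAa
Afm, chr5:90518699-90518948, plus strand: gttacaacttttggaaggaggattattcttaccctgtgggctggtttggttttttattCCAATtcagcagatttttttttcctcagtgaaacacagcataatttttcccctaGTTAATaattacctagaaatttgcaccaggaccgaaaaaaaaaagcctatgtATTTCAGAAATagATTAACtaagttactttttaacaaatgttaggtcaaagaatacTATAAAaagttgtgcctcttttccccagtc
Albfm1, chr5:90560959-90561208, plus strand: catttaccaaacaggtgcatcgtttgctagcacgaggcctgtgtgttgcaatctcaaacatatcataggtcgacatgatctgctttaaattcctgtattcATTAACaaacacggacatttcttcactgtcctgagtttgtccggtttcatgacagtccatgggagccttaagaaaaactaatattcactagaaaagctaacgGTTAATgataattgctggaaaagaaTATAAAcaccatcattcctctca
GTTAAT was present in all 5 sequences, and in 5.86% of 21237 mouse promoter sequences of that length. With the start base counted as 0, it began at -52 in Gc, -32 in Alb, -105 in Afp, and -150 (minus strand) and -48 in Albfm1. In Afm it began at -138 and, on the minus strand, at -73. TATAAA was found in Afp, Afm and Albfm1, and in 11.6% of all promoters. The C/EBP core stood in Alb, Afp and Afm (9.12% of all), the FOXA core in Alb and Afp (16.0%), the HNF4 core in Afp (5.02%) and CCAAT in Gc, Alb, Afp and Afm (35.4%). GTTAAT and CCAAT do not overlap here, while the pair of C/EBP matches of Afm overlap each other. The share of G and C was 33.2 to 42.0% in the 5 sequences against a median of 55.6% over all promoters. The motifs were chosen after these promoters were seen and the genes are related, so the shares over all promoters are no test. A match of letters is a description and not evidence that a factor binds.

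H3K9ac was unevenly spread over the cluster. Gc had 9 regions, 3 of them called in all 12 libraries, and Alb had 8, with 2 in all 12. Afp had 2, and neither was called in more than 3 libraries. Afm had 8, and the 2 of these called in all 12 lay at Albfm1. Across the cluster, 10 regions were called in 1 library only. Within each gene the peaks lay in its first part: no region of Gc reached beyond 16.3 kb into its 40.4 kb, and none of Alb beyond 10.2 kb into its 15.7 kb. The exception is Afm, where 6 libraries had a small peak near the 3′ end, 33.0 to 34.3 kb from the start.

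**Figure D1:**
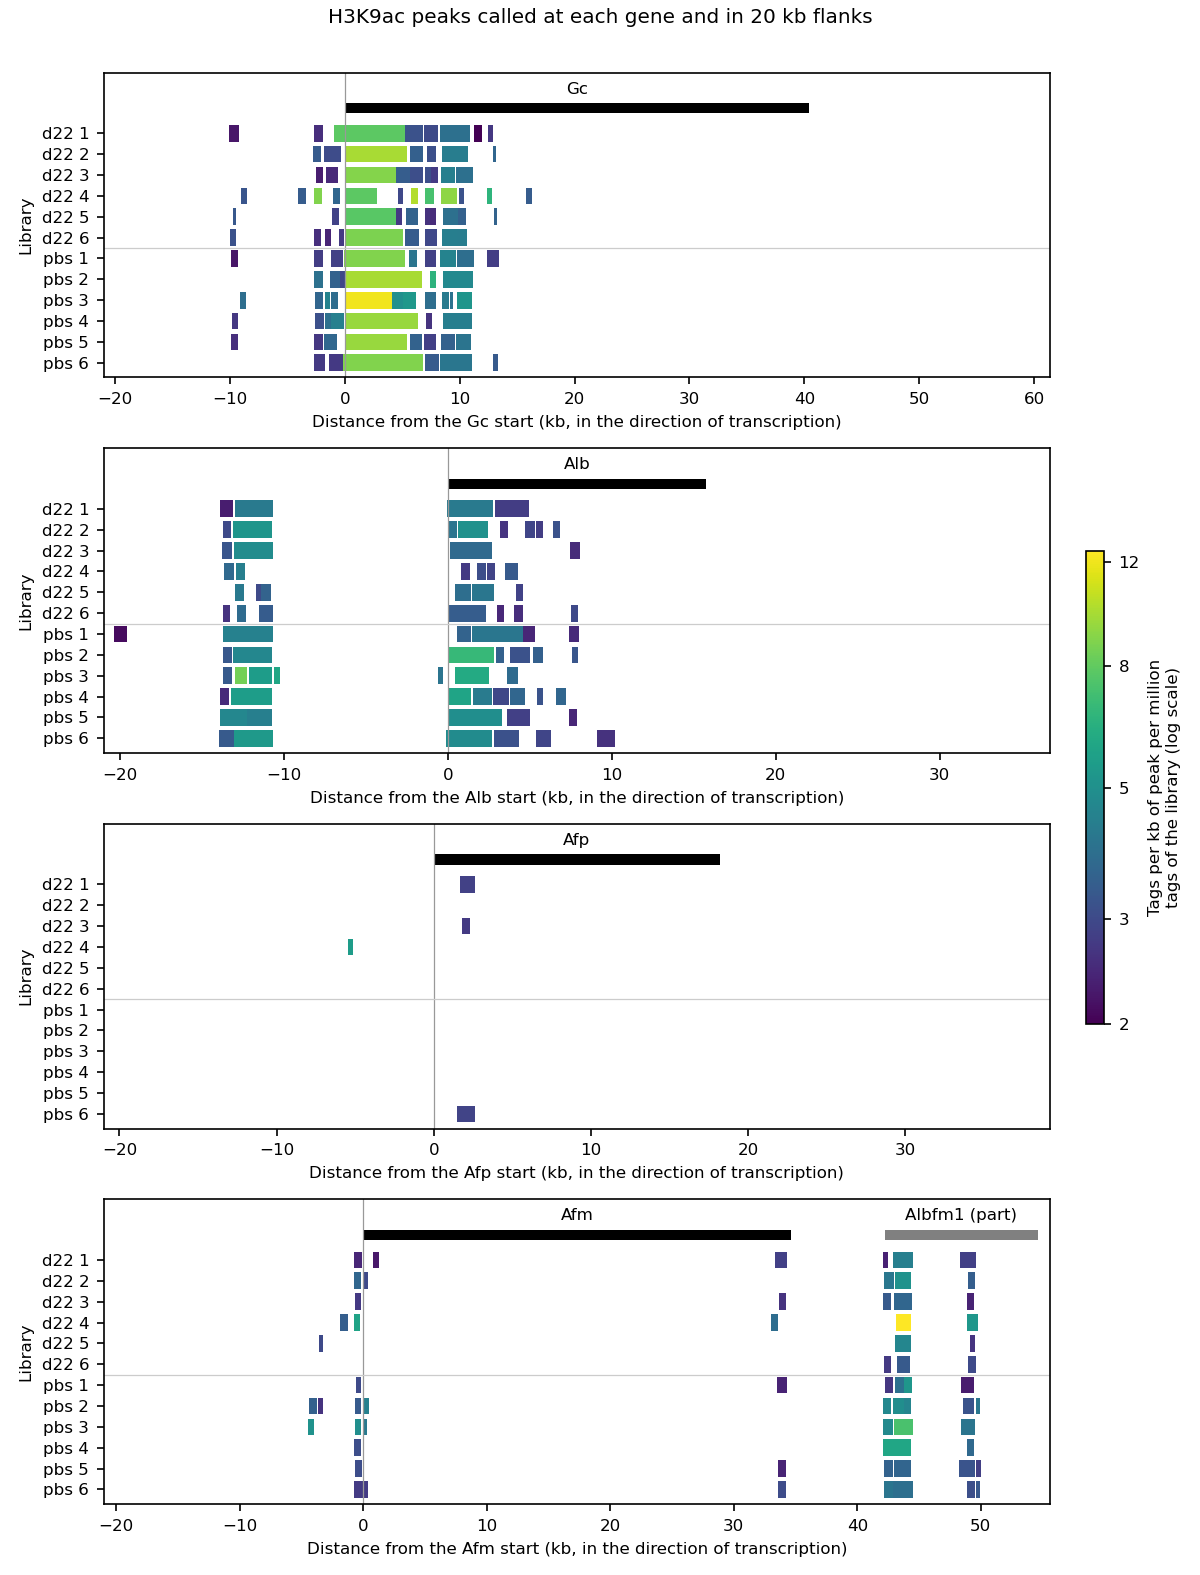
Each bar is a called H3K9ac peak in 1 library (rows), placed by its distance in kb from the start of Gc, Alb, Afp or Afm in the direction of transcription, with the gene as a black bar and the part of Albfm1 within the window in grey. Colour gives tags per kb of peak per 1000000 tags of the library on a log scale: the start of Gc holds a long dense block, in d22 4 the peak at Albfm1 is denser, Alb has a block upstream and one after its start, and Afp has 4 peaks over all 12 libraries.

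The strongest H3K9ac of the cluster lay at the start of Gc. This region (chr5:89451065-89460690) ran from -2.79 to 6.83 kb relative to the start. Levels are given in CPM, tags per 1000000 tags of the tested regions after TMM scaling between libraries. In d22 its level was 220.1 at the lowest, 287 at the median and 323 at the highest. In pbs it was 255, 309.6 and 405. The groups overlap, with 1 d22 library (d22 4) below all pbs libraries and pbs 2 and pbs 4 above all d22 libraries. By mean CPM it stood at percentile 98.1 of the 12375 regions called in all libraries, and by tags per kb of called peak at percentile 71.3. Its tags differed between the groups by -0.17 ± 0.11 (log2 ± SE, edgeR quasi-likelihood test, adjusted p = 0.627). In each library the region was made of 3 to 6 peaks, and the strongest had its summit 503 to 1868 bp after the start (median 1426.5). The start base itself was inside a peak in 3 of 12 libraries, with peaks on both sides of it in the others.

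Further into Gc, 2 shorter regions were called in all 12 libraries. The one 6.88 to 8.21 kb from the start (chr5:89449688-89451021, here Gc body 2) had the second lowest tag level of the 7, at 11.0, 19.1 and 35.1 CPM (lowest, median, highest) in d22 and 7.03, 16.5 and 19.5 in pbs. The one 8.26 to 11.2 kb from the start (chr5:89446684-89449643, Gc body 1) had 45.1, 54.9 and 83.5 CPM in d22 and 48.8, 53.4 and 68.4 in pbs. In both the groups overlap, and the highest value is that of d22 4. The differences, 0.38 ± 0.28 and 0.08 ± 0.14 (log2 ± SE, edgeR adjusted p = 0.682 and 0.904), did not pass the test.

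At Alb the acetylated block began after the start, not across it. The region there (chr5:90460745-90467174) was called from a median of 77.5 bp after the start, with a range from -125 bp (pbs 6) to 777 bp (d22 4). The start base lay inside a peak in 2 of 12 libraries (d22 1 and pbs 6), and the region ended 2668 to 6304 bp into the gene. The strongest summit was 776 to 3824 bp after the start, with a median of 1646. Bases of the sequence printed above for Alb were inside a peak in those 2 libraries only. A second block (chr5:90446923-90450217), here called Alb upstream, lay at -13.9 to -10.7 kb from the start and was also called in all 12 libraries. Whether it covers the known enhancer was not examined. Between this block and the start, 2 small peaks were listed, both in pbs 3.

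**Figure D2:**
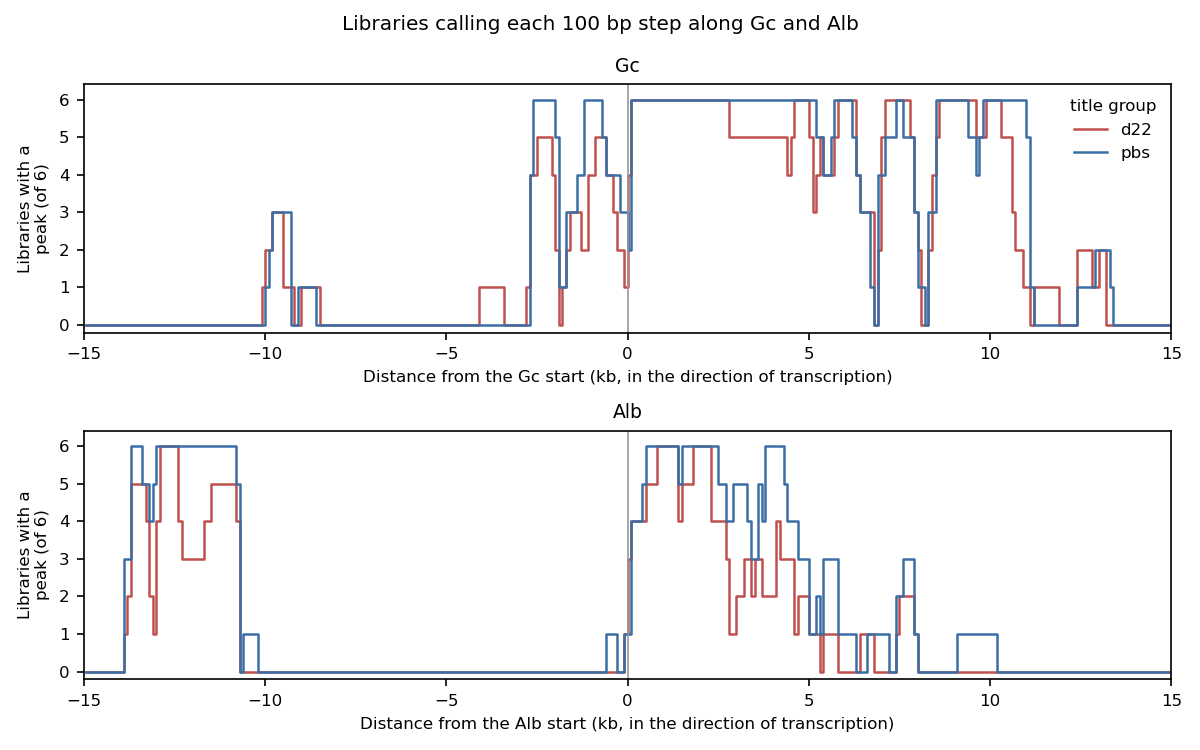
Number of d22 (red) and pbs (blue) libraries, of 6 each, with a peak in each 100 bp step (y axis), against distance in kb from the start of Gc (top) and Alb (bottom). All 6 pbs libraries are called over most of the block upstream of Alb, where d22 drops to 3 of 6, and at the start of Alb itself few libraries have a peak.

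Both Alb regions had fewer tags on average in d22, but neither passed the test over all regions. At the Alb start the CPM values of d22 were 92.4, 72.4, 56.5, 42.7, 70.0 and 63.3 in d22 1 to d22 6, and those of pbs were 82.5, 147.8, 71.2, 103.6, 102.1 and 89.3 in pbs 1 to pbs 6. The groups overlap: 4 d22 libraries are below every pbs library and 3 pbs libraries above every d22 library. The difference was -0.56 ± 0.18 (log2 ± SE, edgeR adjusted p = 0.177). It passed when tags were scaled by library totals (-0.76, edgeR adjusted p = 0.0193), where the median of all regions also shifted by -0.22. Upstream of Alb the values were 29.4, 49.6 and 79.7 CPM (lowest, median, highest) in d22 and 63.4, 73.3 and 77.4 in pbs. Here d22 spans more than the whole pbs range, and 5 of its 6 libraries lie below every pbs library. That difference was -0.44 ± 0.19 (log2 ± SE, edgeR adjusted p = 0.404). In whole liver tissue, fewer hepatocytes and less acetylation per cell cannot be told apart.

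The called peaks at Alb were also shorter on average in d22. Upstream of Alb, d22 4, d22 5 and d22 6 had 1210, 1455 and 1849 bp called, against 2729 to 3243 bp in the other 9 libraries. At the Alb start the called length was 2336, 3016.5 and 4919 bp (lowest, median, highest) in d22 and 2779, 4745.5 and 5301 bp in pbs, with the groups overlapping. The log2 differences in length were -0.52 ± 0.22 upstream and -0.48 ± 0.19 at the start (limma, adjusted p = 0.700 and 0.676). Per kb of called peak the values were closer. Alb upstream had 22.9 ± 2.78 CPM per kb in d22 and 23.6 ± 2.64 in pbs, and Alb start 20.4 ± 2.77 and 22.1 ± 4.62 (SD, n = 6 libraries each). These differences were -0.04 ± 0.13 and -0.10 ± 0.15 (log2 ± SE, limma adjusted p = 0.959 and 0.910). The lowest depth of the series is that of d22 4, with 6343891 tags against 13259411 at the highest. Nearly as shallow was pbs 3 (6385610), with 2729 bp called upstream of Alb and 2779 bp at the Alb start, the lowest of pbs at both. The libraries d22 5 and d22 6, also short upstream, held 12537064 and 10275995 tags. Their share of tags inside peaks was the lowest of the 12 libraries, at 16.4% and 17.6%, against 19.9 to 26.6% in pbs. In d22 4 that share was 23.1%. The parts of depth and of this share in the called length were not tested.

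The authors' fold enrichment over input was lower in d22 at both Alb regions. At the Alb start its highest value per library was 13.0, 16.1 and 23.2 (lowest, median, highest) in d22 and 23.3, 25.9 and 29.1 in pbs, so the groups do not overlap. The difference was -0.65 ± 0.21 (log2 ± SE, limma adjusted p = 0.0199). Upstream, d22 had 15.4, 20.6 and 24.7 and pbs 21.7, 31.5 and 41.5, with 5 of 6 d22 libraries below every pbs library (-0.64 ± 0.20, limma adjusted p = 0.0202). Both calls were lost without d22 6 (adjusted p = 0.0604 and 0.0654 for start and upstream) or without pbs 3 (0.0508 and 0.0703). Groups were also separate at the Gc start, with 45.2, 51.3 and 57.4 in d22 and 57.5, 62.6 and 78.9 in pbs, where the difference of -0.34 ± 0.17 did not pass (limma adjusted p = 0.121). Such calls are common in the series: 18.9% of all 12375 regions were called lower in d22 by this measure against 2 of the 7 here, and the median region differed by -0.30. All 6 d22 libraries lie below all 6 pbs libraries at 5.82% of regions, and at 2 of the 7 here. Each group was called against its own pooled input, so for fold enrichment, for the called length and for which peaks are listed, effects of input and of group cannot be told apart. Tags and tags per kb are taken over the called peaks only, so the same limit holds for them.

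**Figure D3:**
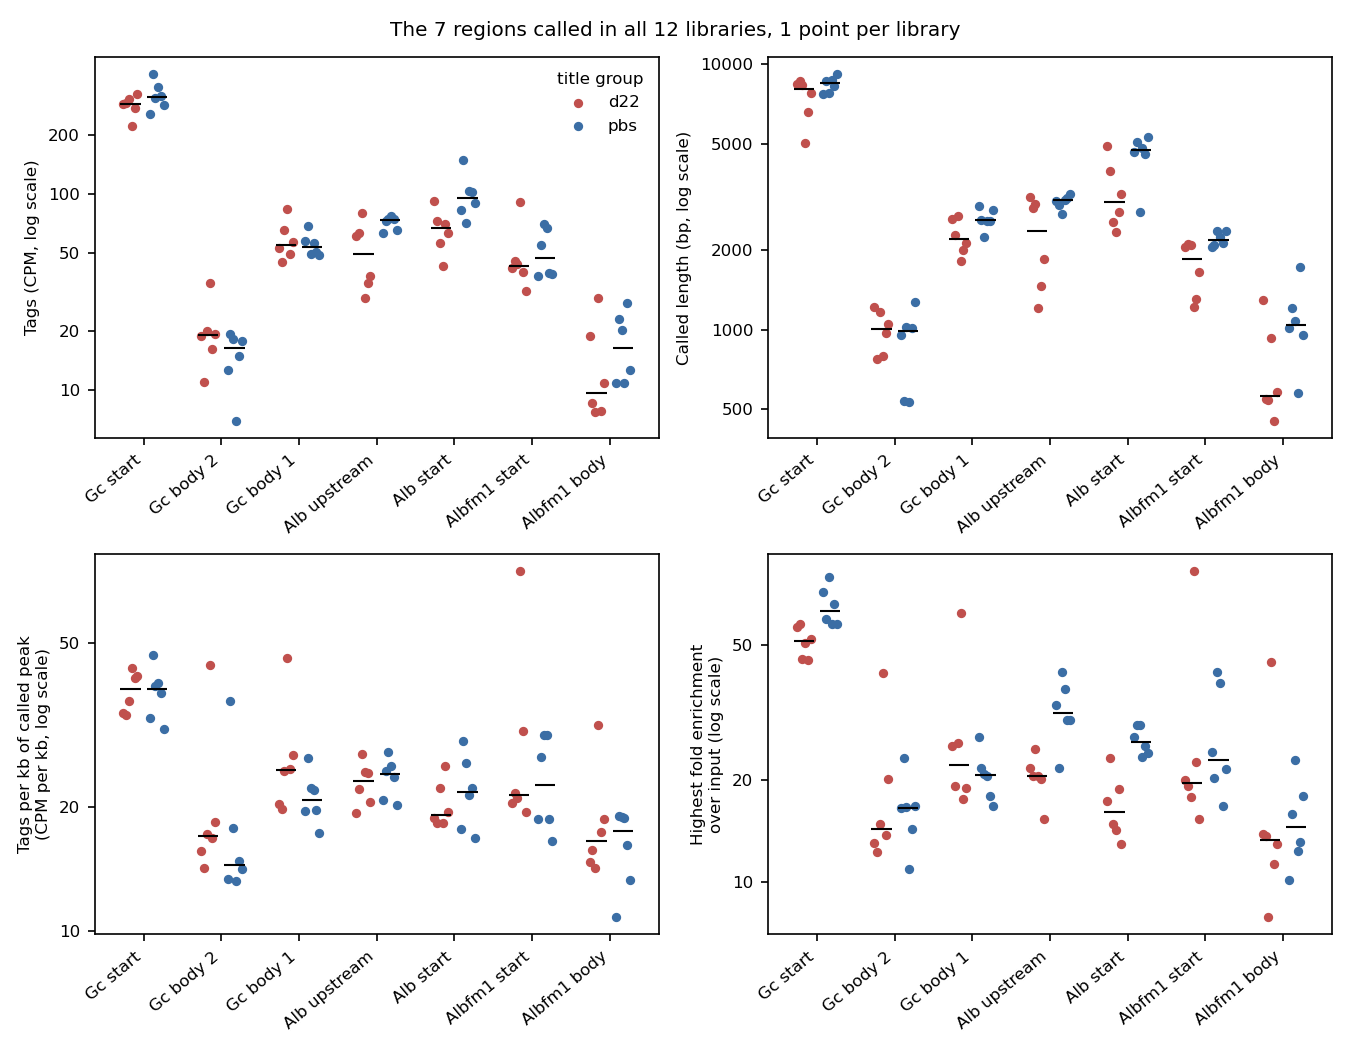
Values of the 7 regions called in all 12 libraries, 1 point per library (d22 red, pbs blue) with a black line at each group's median, on log axes: tags in CPM, called length in bp, CPM per kb of called peak, and the highest fold enrichment over input. Gc start is highest in all 4 panels by its medians. At Alb start the fold enrichment of d22 (13.0 to 23.2) ends just below that of pbs (23.3 to 29.1), while in tags, length and tags per kb the groups overlap.

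Afp had almost no H3K9ac peaks. No library had a peak over its start, and none was listed in the 250 bases before it. A region 1.47 to 2.63 kb into the gene (chr5:90492182-90493345) was called in d22 1, d22 3 and pbs 6 with 34, 17 and 39 tags. One peak of 10 tags lay upstream, at -5.43 to -5.14 kb, in d22 4 alone. Over all its peaks Afp had 2.76, 1.30 and 1.58 tags per 1000000 tags of the library in d22 1, d22 3 and d22 4 and 3.26 in pbs 6. The other 8 libraries listed none, which sets no upper limit, since the lists hold only what passed the caller's threshold.

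Afm had a small peak just before its start. The region (chr5:90518189-90519403) ran from -760 to 454 bp relative to the start and was called in 10 libraries, all but d22 5 and d22 6. It held 14 to 40 tags a library, and its strongest summit lay at a median of -467 bp, so upstream of the sequence printed for Afm. The start base was inside a peak in 3 of the 10. It was called in 4 of 6 d22 and 6 of 6 pbs libraries, and a region called in 10 of 12 cannot be tested for this: the smallest two-sided p of Fisher's exact test is then 0.455. The remaining 5 regions of Afm short of Albfm1 were each called in 1 to 6 libraries.

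The regions that filled the window of Afm in every library belonged to Albfm1, whose function is not described here. At its start (chr5:90561003-90563428) the level was 31.9, 42.7 and 91.1 CPM (lowest, median, highest) in d22 and 38.2, 47.3 and 70.5 in pbs. Further in (chr5:90567155-90568968) it was 7.74, 9.74 and 29.4 in d22 and 10.9, 16.5 and 27.8 in pbs. The highest value of each is that of d22 4, and the groups overlap at both. The differences were -0.09 ± 0.23 and -0.39 ± 0.35 (log2 ± SE, edgeR adjusted p = 0.936 and 0.756).

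Taking the 7 regions by measure, few passed a test. In tags 0 of 7 passed (edgeR, 0 by DESeq2), where 1.01% of all regions did. At an unadjusted p under 0.05 they were 2 of 7, or 28.6%, against 10.9% of all regions. Their median difference was -0.17 against 0.0032 over all regions, and 5 of the 7 were negative. In called length 0 of 7 passed (limma), as did 0% of all regions. At an unadjusted p under 0.05 they were 4 of 7, or 57.1%, against 6.81% of all regions. The median was -0.38 against -0.08, and Gc body 2 was the one region with a positive difference (0.22). In tags per kb 0 of 7 passed (limma, 0 at an unadjusted p under 0.05), where 0.0404% of all did. Summed over all its peaks, Alb had 12.0 to 30.8 tags per 1000000 tags of the library in d22 and 34.2 to 40.8 in pbs, with no overlap. Of 13419 protein-coding genes with a peak in every library in the gene or its 20 kb flanks, 1.81% separate the groups this way when every peak there is summed (for Alb then 13.6 to 32.3 in d22 and 34.2 to 42.9 in pbs), under a scaling by library totals that lowers the median region by 0.22 on the log2 scale. Gc had 53.0 to 76.4 and 73.8 to 88.7, and Afm with Albfm1 6.91 to 27.7 and 13.6 to 25.8, both with overlap. These sums move with how much was called: a mean of 5784 bp of Alb was called in d22 and 8351 bp in pbs. Over the whole series, the share of a library's tags inside peaks was 16.4 to 23.8% in d22 and 19.9 to 26.6% in pbs.

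**Figure D4:**
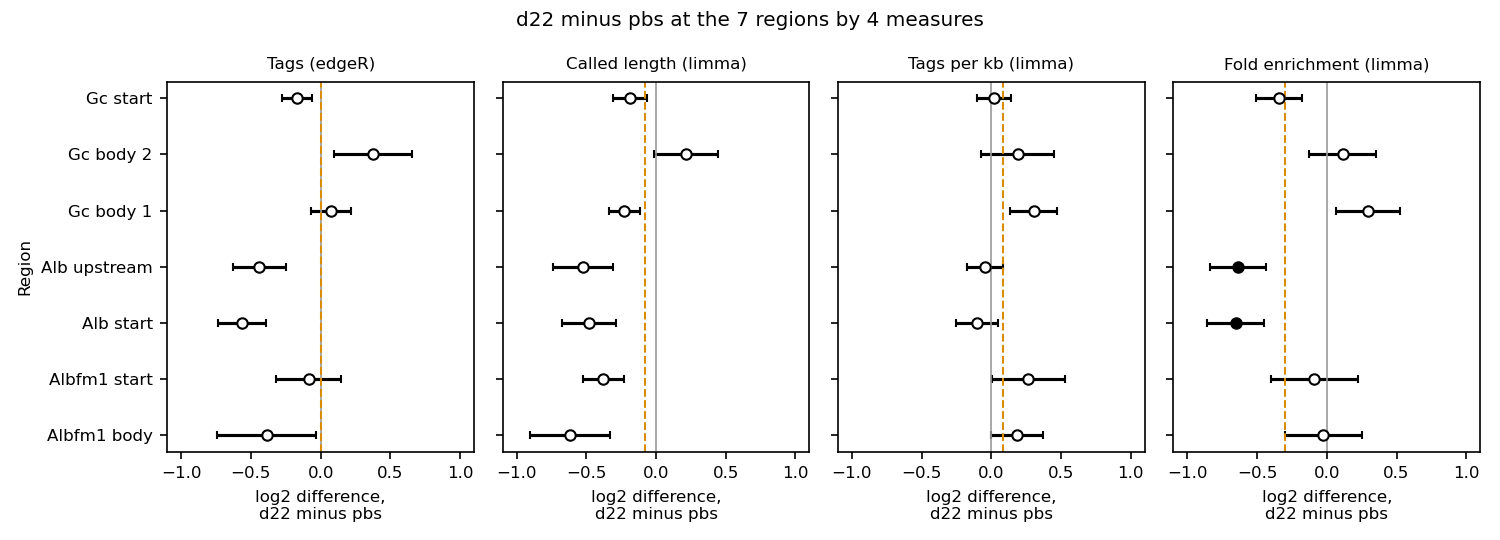
log2 difference, d22 minus pbs, of the 7 regions (rows) by 4 measures (panels): points are the fitted values, bars 1 SE on either side, filled points an adjusted p under 0.05, and the dashed line the median of all 12375 regions. The filled points are the fold enrichment of both Alb regions (-0.64 and -0.65), whose difference in tags per kb lies near 0.

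In density of the mark Gc start came first. Mean tags per kb of called peak over the 12 libraries were 38.2 ± 4.76 at Gc start, 27.4 ± 15.8 at Albfm1 start, 24.1 ± 7.52 at Gc body 1 and 23.3 ± 2.61 at Alb upstream (CPM per kb, SD, n = 12). They were 21.3 ± 3.75 at Alb start, 19.7 ± 9.87 at Gc body 2 and 17.5 ± 5.18 at Albfm1 body. Gc start was above Albfm1 start in 11 of 12 libraries, the exception being d22 4. Alb upstream was above Alb start in 10 of 12. Over all 12 libraries no step between neighbours in this order was larger than 1 SD of its differences, and for the first step that rests on d22 4. Without d22 4, Alb upstream was second, and Gc start was above it by 14.5 ± 4.11 CPM per kb (SD, n = 11; 9.29 to 22.2, in 11 of 11 libraries). The other steps remained under 1 SD without that library, which was left out after its values were seen.

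Alb start had a low density of H3K9ac for a plasma protein gene in these peak lists. Its mean of 21.3 CPM per kb stood at percentile 15.7 of all regions, where the median region had 31.7, although its called length (3921 bp) stood at percentile 89.5. Among the regions at the ends of 35 other hepatocyte plasma protein genes, 34 regions in all, Alb start was below all 34 in 11 of 12 libraries, and in the other library 1 region was below it. In fold enrichment it was below all 34 in 6 of 12 libraries. The nearest were Fga (fibrinogen alpha chain) at 24.8 ± 4.45, Hpx (hemopexin, which binds heme) at 27.2 ± 7.18 and Itih2 (a heavy chain of inter-alpha-trypsin inhibitor) at 29.5 ± 4.66 CPM per kb (SD, n = 12). Gc start was in the middle, above 11 to 21 of the 34 regions (median 16). Each of the other genes is represented by the region with the most tags at either end, a choice that favours high values. The comparison is a description of these libraries, with no test.

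**Figure D5:**
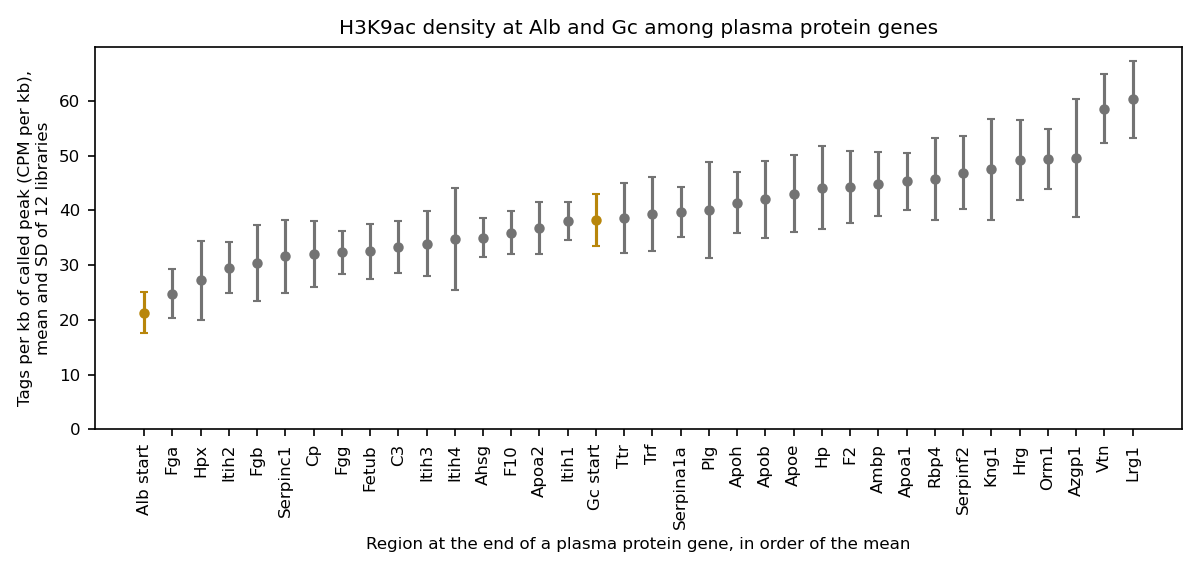
Mean tags per kb of called peak (CPM per kb, y axis from 0) with the SD over the 12 libraries, for Alb start and Gc start (gold) and the 34 regions at plasma protein genes (grey), in order of the mean. Alb start is lowest at 21.3, Gc start is at 38.2 near the middle, and Lrg1 is highest at 60.3.

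Genes known to act on the cluster gave no call in tags by edgeR. Of 32 genes for factors known to act on promoters and enhancers of this family, 29 had a region at a gene end in all 12 libraries. None passed in either direction (edgeR, 6 of 29 at an unadjusted p under 0.05, or 20.7%, against 10.9% of all regions), with 13 differences positive, 16 negative and a median of -0.01. DESeq2 called 1, Tef, a PAR bZIP factor of the circadian output (0.70 ± 0.20 log2, edgeR adjusted p = 0.143, DESeq2 adjusted p = 0.0442). The next by p were Foxa1, a pioneer factor (-0.33, edgeR adjusted p = 0.229), and Trp53, which represses Afp (-0.27, 0.274). For Zhx2 and Zbtb20, known repressors of Afp after birth, the regions had 165 and 45.0 CPM in d22 and 159 and 42.7 in pbs (0.05 and 0.08 log2, edgeR adjusted p = 0.889 and 0.879).

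Of 36 other plasma protein genes 35 had such a region, and 0 of their 34 regions passed (edgeR, 7 at an unadjusted p under 0.05, or 20.6%, against 10.9% of all regions). Differences were negative at 22 and positive at 12, with a median of -0.09. The smallest p was at Rbp4, the plasma carrier of retinol (-0.43 ± 0.11 log2, edgeR adjusted p = 0.0753), which DESeq2 called (adjusted p = 0.0133). Fga (-0.41, edgeR adjusted p = 0.181) and Serpina1a, an alpha-1-antitrypsin gene with near-identical copies (-0.28, 0.232), followed. Among 16 genes neighbouring the cluster, 6 had a region in all 12 libraries and none passed (edgeR, 0 at an unadjusted p under 0.05, 0 by DESeq2), while 6 had no peak at either end in any library. The smallest p there were those of Rassf6 (-0.38), Cxcl1, a neutrophil chemokine (-0.18), and Ankrd17 (0.18), with edgeR adjusted p = 0.461, 0.543 and 0.568.

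Hepatocyte markers were acetylated in every library, which fits the liver label. All 6 had a region in all 12 libraries, and their summed level was 1274 to 1417 CPM in d22 and 1269 to 1472 in pbs. Of 6 markers for each other cell type, macrophages had such a region at 1 (Cd68) and endothelium at 2 (Pecam1 and Clec4g). Stellate cells had it at 0, bile duct and progenitor cells at 2 (Sox9 and Cdh1) and lymphocytes at 1 (Cd79a). Levels in d22 and pbs were 58.9 to 91.1 and 63.3 to 79.3 CPM at Cd68. Summed over Pecam1 and Clec4g they were 52.2 to 87.9 and 44.7 to 80.8. Over Sox9 and Cdh1 they were 96.6 to 167 and 103 to 139, and at Cd79a 110.1 to 268 and 107 to 141. The groups overlap in each. Levels of 1 or 2 regions do not measure the amount of a cell type. Among the markers at 0, with no peak at either end in any library, were Krt19, Krt7, Epcam, Spp1, Cd3e, Ptprc, Nkg7, Ms4a1, Marco, Cd5l, Des and Dcn. Such markers were 2 of 6 for macrophages, 0 of 6 for endothelium, 2 of 6 for stellate cells and 4 of 6 for bile duct and progenitor cells. The rest of those 4 lists had a peak in at least 1 library. In these lists 0 regions passed (edgeR, 2 at an unadjusted p under 0.05, Cyp2e1 at -0.55 and Cdh1 at -0.57), and DESeq2 called Cdh1 (adjusted p = 0.0294). The part of other cells in the Alb values was not tested.

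The gene-end regions whose tags were most like those of the cluster over the 12 libraries were listed. For Gc start the highest Pearson r of log2 CPM, among 8588 gene-end regions, was with Ugt2b36 (0.948, a glucuronosyltransferase), Cyp2j5 (0.936, a P450), Acnat1 (0.934), Itih2 (0.927) and Rps12 (0.925, a ribosomal protein). Alb start was most like Cyp4v3 (0.948), Atp5o (0.920, a subunit of ATP synthase), Tdo2 (0.911, the first enzyme of tryptophan breakdown), Lars2 (0.903) and Crot (0.900, a peroxisomal carnitine acyltransferase). For Albfm1 start, the region with the most tags in the window of Afm, they were Atp6ap1 (0.906), Tardbp (0.893), Syncrip (0.882), C1d (0.866) and Hnf4a (0.863). Within the cluster, Alb start had an r of 0.74 with Gc start and 0.61 with Alb upstream, and Albfm1 start had -0.20 with Alb start and -0.12 with Gc start. All these values share the same 12 libraries and their scaling, include the difference between the groups and the library d22 4, and were not tested. The named gene-end regions are the highest of 8588, a choice that by itself favours a high r.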

How the data were processed

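H3K9ac peak tables of 12 libraries were used. The 2 pooled inputs, both labelled as dextrose, were not analysed. The submitters' processing notes name CASAVA 1.8, the aligner Novoalign, the build mm10 and the peak caller MACS 1.4.2. Each library was called alone against its title group's pooled input, keeping at most 1 tag per position, per the file headers, and tags were 48 bp long in pbs 1, pbs 4 and pbs 6 and 49 bp in the others. From the deposited columns came the raw count of tags per peak, its length and summit, a score (-10 times the log10 of the p-value) and a fold enrichment ratio over local background. The false discovery rate, deposited by the authors in percent, entered no result.

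Peaks overlapping by at least 1 bp were merged into regions, and a library's tags and length in a region are sums over its peaks. Regions called in all 12 were tested for d22 minus pbs over the whole table: tags with edgeR 4.0.16 (R 4.3.3, quasi-likelihood, TMM), and log2 length, tags per kb (pseudocount 0) and highest fold enrichment with limma 3.58.1, with Benjamini-Hochberg adjustment at 0.05. DESeq2 1.42.0, library totals, a replicate block, a mean of at least 50 tags, a score of at least 100, a 100 bp overlap, other windows and leaving out each library were alternatives. Scripts were tested on simulated data. Libraries held 6343891 to 13259411 tags, and a region with few tags carries more counting error. Counts of library pairs differed by a chi-square of 2.41 to 10.3 per degree of freedom, so none was a duplicate. A gene's region is the one with the most tags within 1 kb of either gene end. Named are the 4 genes and all their regions, for each gene list the 3 smallest p and any call, and the 5 regions most like each gene's strongest. The genes and lists were chosen with earlier results of these data known, and the motifs after the promoters were seen. Zhx2 and Zbtb20, and the Fga, Hpx and Itih2 levels, were picked after their values were seen. The result of 1 marker gene is not reported here.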

Additional observations from a re-analysis of the deposited data

Results flagged for a closer look

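In 12 of 56 groups of 6 libraries (7 regions, 4 measures, 2 groups), 1 library stood far from the other 5 by Dixon's test at 95%. Chance gives about 1 in 20 for a single group of values. The 56 groups are not independent, since the 4 measures of a region come from the same peaks. Of the 12, 10 were the library d22 4, which had the lowest depth and the most peaks (44585 against 26352 to 30780 in the others). At Albfm1 start d22 4 had 91.1 CPM, 75.0 CPM per kb and a fold enrichment of 82.4. At Albfm1 body it had 31.7 CPM per kb and a fold enrichment of 44.4. Gc body 1 had 46.1 CPM per kb and a fold enrichment of 61.8 in d22 4. At Gc body 2 it had 35.1 CPM, 44.2 CPM per kb and a fold enrichment of 41.2. All 10 were the highest of their group, while at Alb start and Gc start d22 4 was the lowest d22 library in CPM. The other pair were Gc body 2 in pbs 2 (36.1 CPM per kb) and the called length of Alb start in pbs 3 (2779 bp, the lowest of pbs). What sets d22 4 apart was not tested. Leaving it out changed no call at the 7 regions.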

How the results depend on the processing

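The number of regions in the cluster, 27, was 14 with the gene spans alone and 15 with a score of at least 100, which leaves no region called in all 12 at Alb start, Gc body 2 and Albfm1 body. Over all regions, 125 passed in tags (56 higher, 69 lower): 272 by DESeq2 (114 and 158), 454 with library totals (26 and 428), 39 with 49 bp tags alone (26 and 13), an alternative chosen after seeing the data, and 64 to 139 without 1 library. Fold enrichment, 2503 regions, gave 466 with 49 bp tags and 1552 to 3628 without 1 library. Called length, 0, gave 1 and 0 to 35. Tags per kb, 5, gave 0 with 49 bp tags, 0 with the score minimum, 12 with the replicate block and 0 to 5 without 1 library. Replicate numbers did not pair the libraries: same-numbered libraries had an r of -0.0067 to 0.16, over 0.1 in 1 of 6 pairs, and 1 of 6 d22 and 2 of 6 pbs libraries were most like their own number. With the replicate block 128 regions passed in tags, 1711 in fold enrichment and 0 in length, and no call at the 7 regions changed. Both Alb calls in fold enrichment were lost with 49 bp tags (-0.74, adjusted p = 0.0775 at the start, -0.56, 0.177 upstream), with ranges without 1 library of -0.75 to -0.58 and -0.75 to -0.56. Without 1 library, tags ranged from -0.23 to -0.087 at Gc start, 0.18 to 0.52 at Gc body 2, -0.60 to -0.33 at Alb upstream and -0.67 to -0.20 at Albfm1 body, with no call. Tags at Alb start ranged from -0.69 to -0.42 (adjusted p 0.0832 to 0.365) and had a DESeq2 adjusted p of 0.0913. Other signs turned, none of them at a called value. Gc body 1 tags were -0.15 with library totals. With 49 bp tags, tags per kb were -0.13 at Gc body 2, -0.11 at Gc start and -0.0035 at Albfm1 body, and fold enrichment -0.029 at Gc body 2. Ranges that crossed 0 without 1 library were, for tags, -0.026 to 0.15 at Gc body 1 and -0.31 to 0.022 at Albfm1 start. For tags per kb they were -0.044 to 0.41 at Gc body 2, -0.039 to 0.079 at Gc start, -0.086 to 0.0030 at Alb upstream and -0.021 to 0.37 at Albfm1 start. For fold enrichment they were -0.14 to 0.22 at Gc body 2, -0.45 to 0.049 at Albfm1 start and -0.35 to 0.15 at Albfm1 body. The minimum of 50 tags left out Gc body 2 and Albfm1 body. The cause of these changes was not tested, and regions of few tags are the least precise.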
